A study of Homo sapiens with 6 samples.

Results

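The hypoxia-inducible factor (HIF) pathway was described by 10 genes in HCT116 cells, a human colorectal cancer cell line, with and without LSD1. The genes were HIF1A and EPAS1, which encode the HIF alpha subunits, VHL, EGLN1 and EGLN3, which encode proteins that sense oxygen or mark HIF for destruction, and CA9, VEGFA, ADM, NDRG1 and BNIP3, which HIF switches on outside glycolysis. They were selected by symbol among the 60240 genes of the count table, and all 10 were found. They were also chosen from an earlier reading of the same WT and LSD1 KO libraries, so their differences between the genotypes are given as a description and support nothing further. RNA-seq had been made from 3 WT and 3 LSD1 KO libraries of poly(A) RNA, numbered 1 to 3 in each group. LSD1 KO cells had been made with CRISPR/Cas9 against exon 1 of the gene that encodes LSD1, a demethylase of histone H3 lysine 4, and expanded as individual clones. The number of clones behind the LSD1 KO libraries is not given in the sources used here. The study's general statement on statistics is that experiments had biological replicates, without naming separate cultures for these libraries, so that p-values measure the spread between these libraries. The WT libraries came from wild-type HCT116 cells, and no oxygen treatment is named for either group.

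In oxygenated cells the prolyl hydroxylases encoded by EGLN genes modify the HIF alpha subunits, the VHL protein recognises the modified subunit, and a ubiquitin ligase sends it to the proteasome. When oxygen is scarce the alpha subunit escapes, pairs with ARNT and binds short DNA elements with the core RCGTG, spelled ACGTG or GCGTG. EGLN3 is both a regulator of HIF and one of its targets. Because HIF alpha is controlled mainly as a protein, RNA levels of HIF1A and EPAS1 do not measure HIF activity.

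Promoter sequences were read from RefSeq (GRCh38.p14) for 7 of the 10 genes, namely HIF1A, EPAS1, EGLN1, EGLN3, CA9, ADM and BNIP3. The letters ACGTG and GCGTG were searched on both strands, where they read CACGT and CACGC on the printed strand, and overlapping matches such as those in CACGTG were counted separately. The window ran from 250 bases before to 50 bases after each start site. The 7 genes had 8 windows, because HIF1A has 2 start sites in the table, and 6 of the 8 windows held at least 1 match, against 48.4% of 35116 windows of the same length. BNIP3 had 6 matches between 143 and 104 bases before its start site, a number reached by 0.923% of the windows. CA9 had 1 match 18 bases before the start site, EGLN1 had 1 match at 13 bases and ADM had 1 match at 101 bases. EPAS1 had 1 match 117 bases and HIF1A 1 match 204 bases before its upstream start site, and the EGLN3 window and the other HIF1A window had 0. The 250 bases before the start site are shown for BNIP3, the gene with the most matches, for CA9 and EGLN1, whose matches lie nearest to the start site, and for ANKRD37, a HIF target described further on that has 3 matches. They are written 5′ to 3′ on the strand of the gene with the matches in capitals, from chr10:131981924-131982173 (minus strand) for BNIP3, chr9:35673678-35673927 (plus strand) for CA9, chr1:231422288-231422537 (minus strand) for EGLN1 and chr4:185396591-185396840 (plus strand) for ANKRD37. A match describes the letters of the window and is not evidence of binding.
BNIP3: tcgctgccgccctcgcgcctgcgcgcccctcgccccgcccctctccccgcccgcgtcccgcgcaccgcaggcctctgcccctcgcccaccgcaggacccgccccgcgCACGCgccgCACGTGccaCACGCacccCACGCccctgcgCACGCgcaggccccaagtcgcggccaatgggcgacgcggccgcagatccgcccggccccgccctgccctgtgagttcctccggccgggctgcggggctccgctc
CA9: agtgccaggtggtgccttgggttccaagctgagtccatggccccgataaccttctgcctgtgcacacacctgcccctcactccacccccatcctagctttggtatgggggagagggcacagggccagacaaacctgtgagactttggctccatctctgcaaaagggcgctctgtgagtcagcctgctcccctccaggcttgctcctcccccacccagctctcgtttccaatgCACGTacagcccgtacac
EGLN1: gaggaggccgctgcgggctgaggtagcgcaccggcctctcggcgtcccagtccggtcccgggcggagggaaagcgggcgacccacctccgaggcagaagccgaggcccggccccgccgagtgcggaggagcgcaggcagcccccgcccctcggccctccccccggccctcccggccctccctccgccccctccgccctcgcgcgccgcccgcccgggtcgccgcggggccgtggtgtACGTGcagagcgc
ANKRD37: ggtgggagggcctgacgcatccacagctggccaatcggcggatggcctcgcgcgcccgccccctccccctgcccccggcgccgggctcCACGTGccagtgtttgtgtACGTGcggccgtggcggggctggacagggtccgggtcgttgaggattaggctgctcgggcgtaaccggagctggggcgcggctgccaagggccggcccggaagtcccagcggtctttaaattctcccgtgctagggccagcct

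Total counts ranged from 25379279 to 29186963 per library, and 17672 genes had enough counts to be tested. Levels are given as CPM, that is counts scaled to the library size, here with TMM factors, in which a floor of 3 counts stood at 0.0994 to 0.114 CPM, for counting error only. KDM1A, the gene of LSD1, had 231.2, 224.4 and 213.7 CPM in WT libraries 1, 2 and 3 and 29.9, 27.6 and 27.8 CPM in LSD1 KO libraries 1, 2 and 3. Its LSD1 KO mean was 12.7% of the WT mean, and it was the 1 gene with a q value under 0.1 (log2 fold change -2.97 ± 0.15 SE, q = 0.000451, edgeR's quasi-likelihood test). Of 10 colorectal epithelial markers 7 had a mean of at least 1 CPM, with CDX1 at 0, and their summed level was 2114 to 3956 CPM in WT and 2495 to 3214 CPM in LSD1 KO libraries. The 6 fibroblast markers summed to 20.5 to 24.2 CPM in WT and 30.3 to 34.4 CPM in LSD1 KO libraries, with LUM at 0 and 1 marker at or above 1 CPM. The 6 leukocyte markers summed to 17.2 to 20.8 and 23.7 to 34.1 CPM, with CD3E at 0 and 2 markers at or above 1 CPM. The 5 endothelial markers measured summed to 0.681 to 1.46 and 1.18 to 2.42 CPM. In this cell line the fibroblast and leukocyte sums, each carried by those few markers, moved with the genotype. Their part in the values that follow was not tested.

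HIF1A and EPAS1 RNA was higher in each LSD1 KO library than in the WT library of the same number, and for both genes the WT and LSD1 KO libraries overlapped. HIF1A (ENSG00000100644, chr14:61695513-61748258, GRCh38) had 205.6, 142.0 and 162.2 CPM in WT libraries 1, 2 and 3 and 248.8, 184.3 and 195.9 CPM in the LSD1 KO libraries. Library 1 was the highest of each genotype, and WT library 1 stood above LSD1 KO libraries 2 and 3. The log2 fold change was 0.30 ± 0.20 (SE, n = 3 against 3) in the fit that does not pair the libraries. The differences within same-numbered pairs were 0.27, 0.38 and 0.27 on the log2 scale. EPAS1 (ENSG00000116016, chr2:46297407-46386697) had 31.1, 39.9 and 58.2 CPM in WT and 42.4, 53.1 and 74.9 CPM in LSD1 KO libraries. Library 3 was the highest and library 1 the lowest of each genotype, and WT library 3 exceeded LSD1 KO libraries 1 and 2. Its log2 fold change was 0.40 ± 0.28 (SE), while its pairs differed by 0.45, 0.41 and 0.36. Leaving out 1 library at a time gave 0.16 to 0.46 for HIF1A and 0.15 to 0.68 for EPAS1. With the replicate number as a block in edgeR, which pairs the libraries, HIF1A had 0.31 ± 0.084 (SE, q = 0.172). EPAS1 had 0.41 ± 0.088 (SE, q = 0.1001) in that fit, and both stayed above the q threshold of 0.1. In these bulk libraries more cells with a transcript and more of it per cell cannot be told apart.

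The genes that restrain HIF had the smallest log2 fold changes of the group, apart from EGLN3. VHL (ENSG00000134086, chr3:10141778-10153667), the substrate receptor of the ubiquitin ligase, had 84.3, 112.6 and 93.3 CPM in WT and 92.5, 123.8 and 106.6 CPM in LSD1 KO libraries. WT library 2 was above LSD1 KO libraries 1 and 3, and the log2 fold change was 0.15 ± 0.18 (SE). EGLN1 (ENSG00000135766, chr1:231363756-231422287), the main oxygen sensor of most cells, had 73.9, 83.6 and 80.4 CPM in WT and 88.0, 84.4 and 83.3 CPM in LSD1 KO libraries. The groups met at WT library 2 and LSD1 KO library 3, and the log2 fold change of 0.10 ± 0.14 (SE) was the smallest of the 9 genes tested. The canonical EGLN1 transcript shared 70.7% of its 31-base stretches with other genes, mostly with ENSG00000287856. That gene held 0 to 25 counts per library, against 1956 to 2462 for EGLN1, and the split of reads between them was not tested. EGLN3 (ENSG00000129521, chr14:33924227-33951074) was low, with 5.86, 12.6 and 8.48 CPM in WT and 9.41, 13.7 and 10.2 CPM in LSD1 KO libraries. WT library 2 was above LSD1 KO libraries 1 and 3, and the log2 fold change was 0.31 ± 0.31 (SE) with pair differences of 0.68, 0.12 and 0.27. Leaving out 1 library at a time moved the log2 fold change from 0.073 to 0.63 for EGLN3 and from 0.024 to 0.27 for VHL.

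Among the targets, NDRG1 had the largest log2 fold change in all 6 libraries together, and CA9 was at the limit of detection. Without both libraries numbered 2, ADM with 0.52 and NDRG1 with 0.50 were close to each other. CA9 (ENSG00000107159, chr9:35673928-35681159), a cell surface carbonic anhydrase widely used as a hypoxia marker, was counted 0, 3 and 4 times in the WT libraries, and 1, 9 and 4 times in those of LSD1 KO cells. It was removed by the filter on low counts, and no fold is given because both groups lay near the floor of 3 counts. Its promoter, printed above, holds the ACGTG letters 18 bases before the start site.

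VEGFA (ENSG00000112715, chr6:43770211-43786487), the growth factor of blood vessels, had 53.4, 64.8 and 64.4 CPM in WT and 68.1, 94.6 and 88.8 CPM in LSD1 KO libraries. Every LSD1 KO library was above every WT library, which held for VEGFA alone among the 9 genes tested (11.1%) and for 4.23% of all genes tested. Its log2 fold change was 0.46 ± 0.18 (SE), with pair differences of 0.35, 0.55 and 0.46. ADM (ENSG00000148926, chr11:10305073-10307397), which encodes the vasodilator peptide adrenomedullin, had 36.9, 58.2 and 39.4 CPM in WT and 59.9, 51.0 and 51.0 CPM in LSD1 KO libraries. Unlike the other genes tested, ADM was lower in LSD1 KO library 2 than in WT library 2, with pair differences of 0.70, -0.19 and 0.37 and a log2 fold change of 0.27 ± 0.21 (SE), which ranged from 0.14 to 0.49 with 1 library left out.

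NDRG1 (ENSG00000104419, chr8:133237175-133297252), a gene induced by hypoxia and other stresses and linked to differentiation, had 170.2, 344.1 and 359.7 CPM in WT and 267.0, 961.6 and 492.7 CPM in LSD1 KO libraries. Its mean was 291.3 ± 105.2 CPM in WT and 573.7 ± 354.3 CPM in LSD1 KO cells, both as mean ± SD with n = 3. LSD1 KO library 2 stood far above the other libraries, whereas LSD1 KO library 1 lay below WT libraries 2 and 3. The log2 fold change was 0.98 ± 0.46 (SE) and fell to 0.36 without LSD1 KO library 2, and the pairs differed by 0.65, 1.48 and 0.45. The canonical transcript shared 24.1% of its 31-base stretches with ENSG00000289316 in GENCODE v44lift37. That gene was not looked up among the counts, and whether any reads were divided with it was not tested. BNIP3 (ENSG00000176171, chr10:131967684-131981923), a mitochondrial protein that promotes mitophagy, had 55.1, 90.4 and 63.3 CPM in WT and 62.1, 111.4 and 68.3 CPM in LSD1 KO libraries. WT library 2 exceeded LSD1 KO libraries 1 and 3, the log2 fold change was 0.21 ± 0.27 (SE), and without LSD1 KO library 2 it turned to -0.11. BNIP3 shared 53.2% of its 31-base stretches with other genes, nearly all of them with BNIP3P1, which had 0 counts in all 6 libraries.

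**Figure D1:**
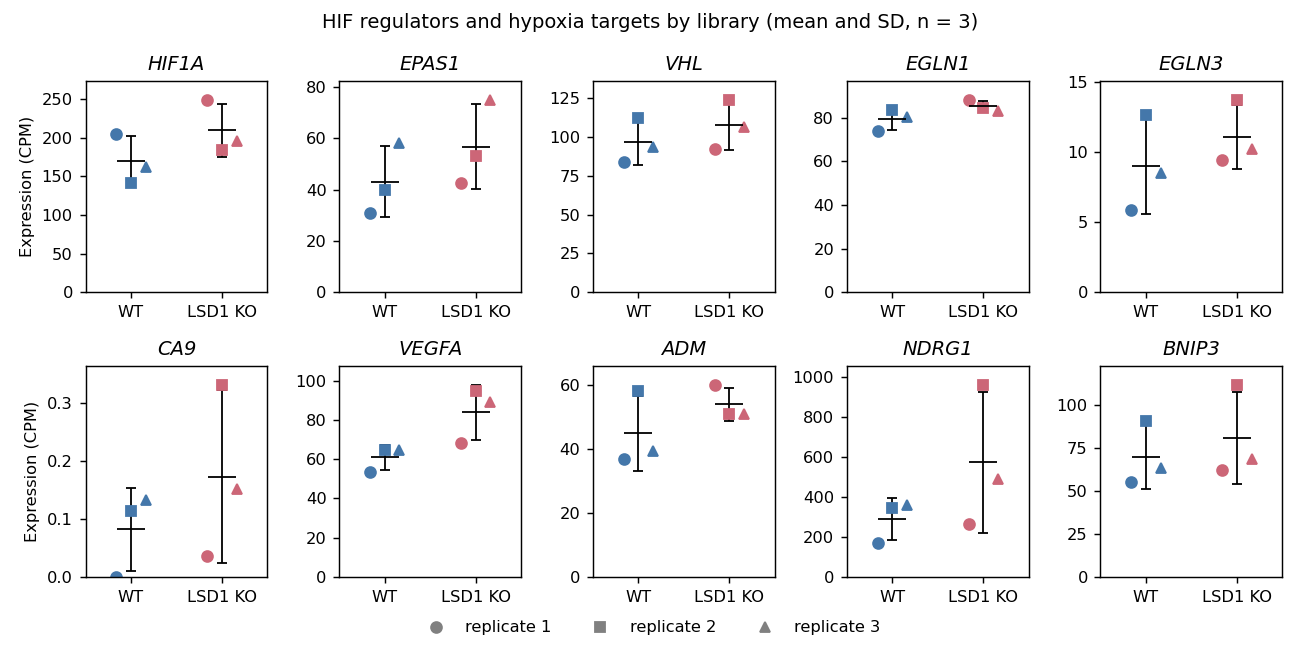
CPM of each of the 10 genes (vertical axes, linear and starting at 0, with a scale for each gene) in the 3 WT and 3 LSD1 KO libraries. Points are libraries, with the symbol giving the replicate number, horizontal bars are means and vertical bars are SD (n = 3). The LSD1 KO libraries lie wholly above the WT libraries for VEGFA, NDRG1 spans 170.2 to 961.6 CPM, and CA9 reaches at most 0.332 CPM.

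Levels were compared between genes per kilobase of canonical transcript. In WT cells NDRG1 was the highest with 96.3 ± 34.8 CPM per kilobase (SD, n = 3), followed by BNIP3 with 45.1 ± 12.0, HIF1A with 43.1 ± 8.25 and ADM with 30.1 ± 7.79. VHL followed with 21.9 ± 3.27, EGLN1 with 18.3 ± 1.14 and VEGFA with 16.9 ± 1.79, and then EPAS1 with 8.35 ± 2.69, EGLN3 with 3.32 ± 1.27 and CA9 with 0.053 CPM per kilobase. The SD ranges of neighbours overlapped from BNIP3 down to VEGFA, so that the order of neighbours in this stretch is not resolved. The SD ranges of BNIP3 and HIF1A lay above those of VHL, EGLN1 and VEGFA, and that of ADM above those of EGLN1 and VEGFA. NDRG1 stood above the stretch, and EPAS1 and EGLN3 stood apart below it. In LSD1 KO cells NDRG1 remained the highest with 189.7 ± 117.1 CPM per kilobase, and HIF1A with 53.1 ± 8.71 and BNIP3 with 52.3 ± 17.4 differed by less than their SD. HIF1A RNA was thus above EPAS1 RNA, at 11.0 ± 3.21 CPM per kilobase in LSD1 KO cells, in both genotypes.

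As a group, the 9 genes tested were higher in LSD1 KO than in WT cells without passing the test. All 9 log2 fold changes were positive, compared with 50.1% of all genes tested, and their median was 0.30, compared with 0.00082. The median was 0.14 without WT library 1 and 0.44 without WT library 2, and without LSD1 KO library 2 BNIP3 was negative. At a q value under 0.1, edgeR called 0 of the 9 genes, against 0.00566% of all genes, and at an unadjusted p under 0.05 it called 1 of them, VEGFA, against 3.12% of all genes. DESeq2, which also tested CA9, called 0, against 0.376% of all genes it tested. With the replicate number as a block, which pairs the libraries, 2 of the 9 genes passed, NDRG1 with a log2 fold change of 0.86 ± 0.18 (SE) and VEGFA with 0.45 ± 0.089 (SE), against 1.60% of all genes. LSD1 KO was above WT in 3 of 3 pairs for 8 of the 9 genes, all except ADM, against 18.8% of all genes, and they were the same 8 under TMM, RLE, upper-quartile and no scaling. These counts restate the contrast from which the genes had been chosen, and nothing is read from their distance to the background.

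**Figure D2:**
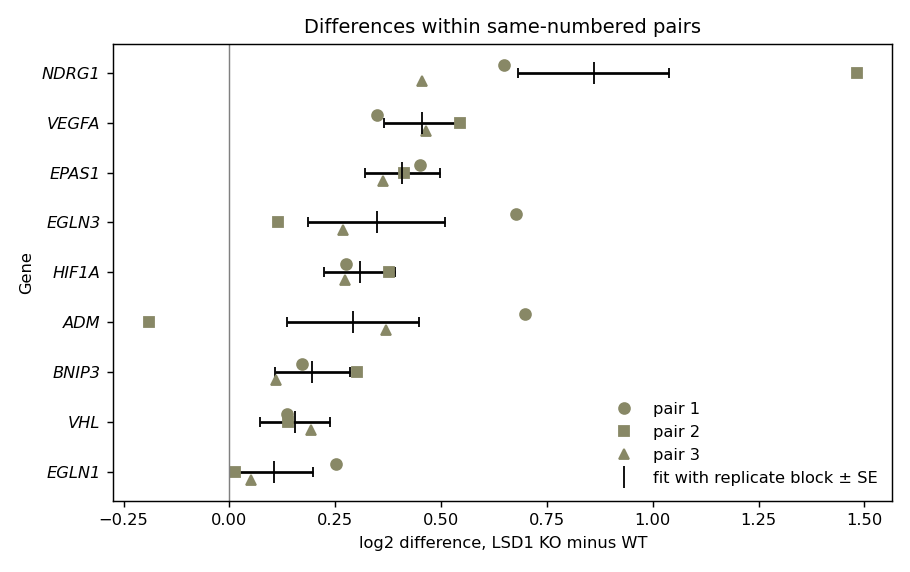
Log2 difference of LSD1 KO minus WT (horizontal axis) for the 9 genes tested, with symbols for the 3 same-numbered pairs and black bars for the estimate ± SE of the fit with the replicate block. ADM pair 2 at -0.19 is the point below 0, and NDRG1 pair 2 at 1.48 is the highest.

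Differences between replicate numbers are not the contrast named in the choice of the genes, although the genes were chosen with earlier results of these libraries known. These differences were tested with genotype in the model (edgeR's quasi-likelihood F test). HIF1A, EPAS1, VHL, EGLN3, VEGFA, NDRG1 and BNIP3 differed between replicate numbers at a q value under 0.1. These were 7 of the 9 genes tested (77.8%), compared with 41.2% of all genes tested, and DESeq2 called 7 as well. Averaged over both genotypes, NDRG1 was at 7.74, 9.17 and 8.72 log2 CPM in libraries 1, 2 and 3 (q = 0.00719). Its spread of 1.43 between replicate numbers exceeded its log2 fold change of 0.98 between genotypes in size, a difference that was not tested. BNIP3 was at 5.87, 6.65 and 6.04 log2 CPM (q = 0.00471) and EGLN3 at 2.91, 3.73 and 3.23 log2 CPM (q = 0.0371), both highest in library 2. VHL (q = 0.0394) and VEGFA (q = 0.0579) were also highest in library 2, with spreads of 0.42 and 0.38 on the log2 scale.

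The HIF alpha subunits were highest in other libraries. HIF1A was at 7.82, 7.34 and 7.48 log2 CPM in libraries 1, 2 and 3 (q = 0.0213) and thus lowest in library 2, whereas EPAS1 was at 5.19, 5.53 and 6.05 log2 CPM (q = 0.00401) and highest in library 3. EGLN1 with 6.34, 6.39 and 6.36 log2 CPM (q = 0.906) and ADM with 5.56, 5.77 and 5.49 log2 CPM (q = 0.431) did not pass the test. On average over the genotypes, 7 of the 9 genes were highest in library 2, compared with 38.6% of all genes tested. Within each genotype separately, library 2 was the highest for 4 of the 9 genes, namely VHL, EGLN3, VEGFA and BNIP3 (44.4%), compared with 25.1% of all genes.

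Transcript length moved with replicate number too. In the shortest of 5 length classes, with canonical transcripts of 110 to 1427 bases, the median deviation from the mean of the 6 libraries was 0.22 in WT library 2 and 0.12 in LSD1 KO library 2 on the log2 scale. In the longest class, from 5265 bases up, it was -0.26 and -0.14. In the class that holds NDRG1 and EGLN3, 2325 to 3485 bases, it was 0.078 and 0.028. For 1428 to 2324 bases, the class that holds BNIP3 and ADM, it was 0.19 and 0.096. For 3486 to 5264 bases, the class that holds HIF1A, EPAS1, VHL, EGLN1 and VEGFA, it was -0.070 and -0.047. After correction for length and GC content, HIF1A no longer passed the test between replicate numbers, while EPAS1, VHL, EGLN3, VEGFA, NDRG1 and BNIP3 did. Without WT library 3 or without LSD1 KO library 3, the count of 7 fell to 5, and over the 6 libraries left out in turn it ranged from 5 to 8.

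The other hypoxia targets outside glycolysis were higher rather than lower in LSD1 KO cells for most genes, and 4 of them passed with the replicate block. This list and those that follow were fixed with earlier results of these data known, so their values are given as a description. Of 46 such genes 43 were tested, and 35 of them (81.4%) had a positive log2 fold change, with a median of 0.29. Without the block 0 of the 43 genes passed in edgeR, against 0.00566% of all genes, and DESeq2 called 0, against 0.376%. An unadjusted p under 0.05 was found for 7 of the 43 genes, against 3.12% of all genes, and 5 of the 7 were higher in LSD1 KO cells. With the block ANGPTL4, ANKRD37, DDIT4 and P4HA1 rose in LSD1 KO cells and 0 fell, which makes 4 of 43 against 1.60% of all genes. With the length and GC correction added to the block, 7 were called higher and 1, STC2, was called lower, against 2.33% of all genes called. With the block but without both libraries numbered 2, 10 were called higher and 4 lower (BHLHE41, CA12, NT5E and STC2), against 5.85% of all genes called. DDIT4, an inhibitor of the growth kinase mTOR, had 55.4, 151.3 and 104.3 CPM in WT and 144.2, 286.6 and 216.7 CPM in LSD1 KO libraries, with a log2 fold change of 1.12 ± 0.11 (SE, q = 0.00777 with the block). WT library 2 stood slightly above LSD1 KO library 1, and the other WT libraries lay below all LSD1 KO libraries. P4HA1, a collagen prolyl hydroxylase, had 60.3, 81.6 and 72.1 CPM in WT and 86.5, 144.3 and 114.9 CPM in LSD1 KO libraries, without overlap (0.67 ± 0.094 SE, q = 0.0222).

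ANGPTL4, a secreted inhibitor of lipoprotein lipase, had 13.7, 45.1 and 27.8 CPM in WT and 31.4, 75.6 and 43.7 CPM in LSD1 KO libraries (0.86 ± 0.12 SE, q = 0.0251). ANKRD37, an ankyrin repeat protein whose promoter is printed above, had 3.70, 10.4 and 5.20 CPM in WT and 6.19, 18.5 and 9.20 CPM in LSD1 KO libraries (0.80 ± 0.15 SE, q = 0.0582). Both groups overlapped for these genes, since WT library 2 exceeded LSD1 KO libraries 1 and 3. By size alone, the fold changes farthest from 0 without the block were DDIT4 and EPO, the hormone of red cell formation, which had 0.50 ± 0.22 CPM in WT and 0.20 ± 0.062 CPM (SD, n = 3 each) without LSD1, and a log2 fold change of -1.32 ± 0.57 (SE) that did not pass. For 6 of the 43 genes every LSD1 KO library was above every WT library (14.0%, against 4.23% of all genes tested). They were KDM3A, KDM4B, P4HA1, PLIN2, PLOD1 and PPFIA4. For 2 of the 43 genes, EPO and STC2, every LSD1 KO library was below every WT library, against 621 of the 17672 genes tested. Apart from P4HA1 and EPO, these genes were named after their values were seen. EPO lay between 4 and 20 counts per library, not far above the floor of 3 counts. The median of the 43 genes was 0.063 without LSD1 KO library 2.

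Glycolytic HIF targets had a median of 0.17 over 21 genes with 15 positive values, and without LSD1 KO library 2 the median was -0.026. Without the block 0 passed in edgeR, against 0.00566% of all genes, and 2 had an unadjusted p under 0.05, against 3.12% of all genes. With the block SLC2A3 and ALDOC rose, 2 of 21 against 1.60% of all genes. SLC2A3, a glucose transporter, had 15.6, 31.0 and 29.4 CPM in WT and 40.6, 91.4 and 82.8 CPM in LSD1 KO libraries without overlap (1.48 ± 0.094 SE, q = 0.00105 with the block), and DESeq2 called it without the block (q = 0.00975). ALDOC, an aldolase, had 27.0, 66.4 and 54.9 CPM in WT and 56.4, 150.3 and 66.4 CPM in LSD1 KO libraries (0.84 ± 0.17 SE, q = 0.0774 with the block), and WT library 2 exceeded LSD1 KO library 1.

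Among the remaining regulators no gene passed the test. Of the 6 HIF subunits and cofactors 0 passed in edgeR without the block, in edgeR with it or in DESeq2. The shares of all genes were 0.00566%, 1.60% and 0.376% in these fits. Of the 6 genes 1 had an unadjusted p under 0.05 without the block (ARNT2), against 3.12% of all genes. Among the 6 genes 3 were positive and the median was 0.076. ARNT2, a partner of HIF alpha, had a log2 fold change of -0.91 ± 0.37 (SE), with a mean ± SD of 10.2 ± 2.56 CPM in WT and 5.43 ± 2.60 CPM in LSD1 KO cells (n = 3 each). Its pairs differed by -1.75, 0.21 and -1.35, and LSD1 KO library 2 with 8.36 CPM was above WT library 2 with 7.23 CPM. CITED2, which competes with HIF alpha for the coactivators CREBBP and EP300, had 51.0 ± 14.5 and 77.7 ± 38.0 CPM (SD, n = 3) and a log2 fold change of 0.61 ± 0.36 (SE). Of the 10 genes of oxygen sensing and HIF degradation 0 passed in any of these fits or had an unadjusted p under 0.05 without the block, against the same shares of all genes. Among the 10 genes 6 were positive and the median was 0.018. With lists this short, 0 calls at these shares are not read as a result about the regulators. The values farthest from 0 were 0.20 ± 0.21 (SE) for USP20, a deubiquitinase, and 0.18 ± 0.24 (SE) for ELOB, a subunit of the VHL ligase. The lists were not tested against each other.

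**Figure D3:**
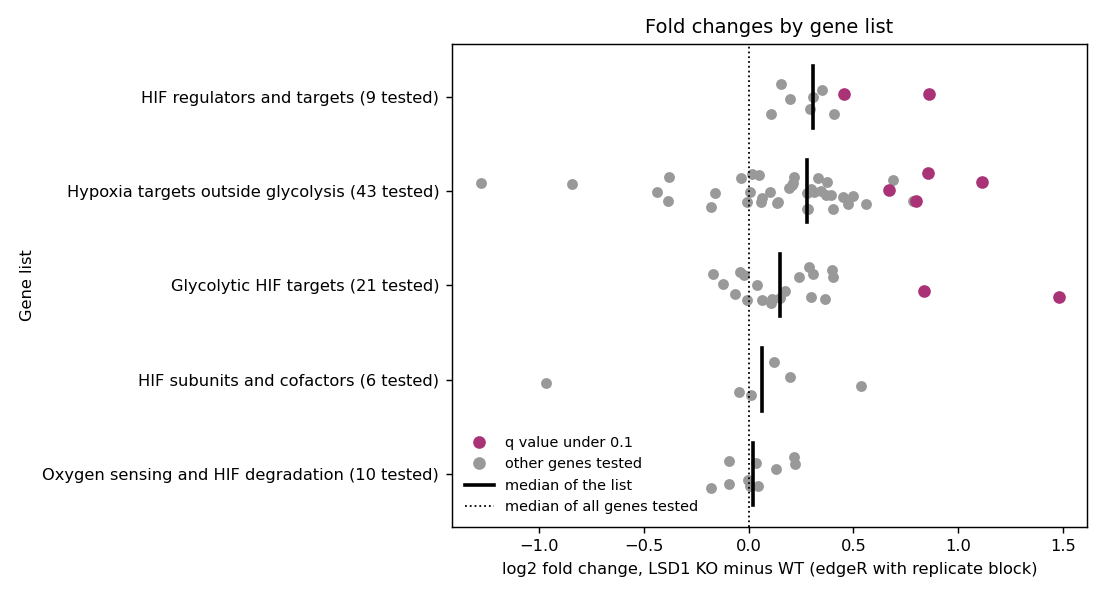
Log2 fold change of LSD1 KO minus WT in the fit with the replicate block (horizontal axis) for each gene of 5 lists (rows). Magenta points have a q value under 0.1 and grey points are the other genes tested, with black bars at the list medians and a dotted line at the median of all genes. The medians lie at 0.31 for the HIF regulators and targets, 0.28 for other hypoxia targets, 0.15 for glycolytic targets, 0.065 for subunits and cofactors and 0.021 for oxygen sensing.

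Replicate numbers also separated the other lists. They were called for 29 of 43 hypoxia targets outside glycolysis (67.4%), 13 of 21 glycolytic targets (61.9%), 4 of 6 subunits and cofactors and 9 of 10 genes of oxygen sensing, against the 41.2% of all genes given above. Library 2 was the highest on average for 31 of the 43 hypoxia targets (72.1%) and 17 of the 21 glycolytic targets (81.0%), against 38.6% of all genes tested. Of the 43 hypoxia targets, 9 were highest on average in library 1 (20.9%, against 35.6% of all genes tested) and 3 in library 3 (6.98%, against 25.9%).

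**Figure D4:**
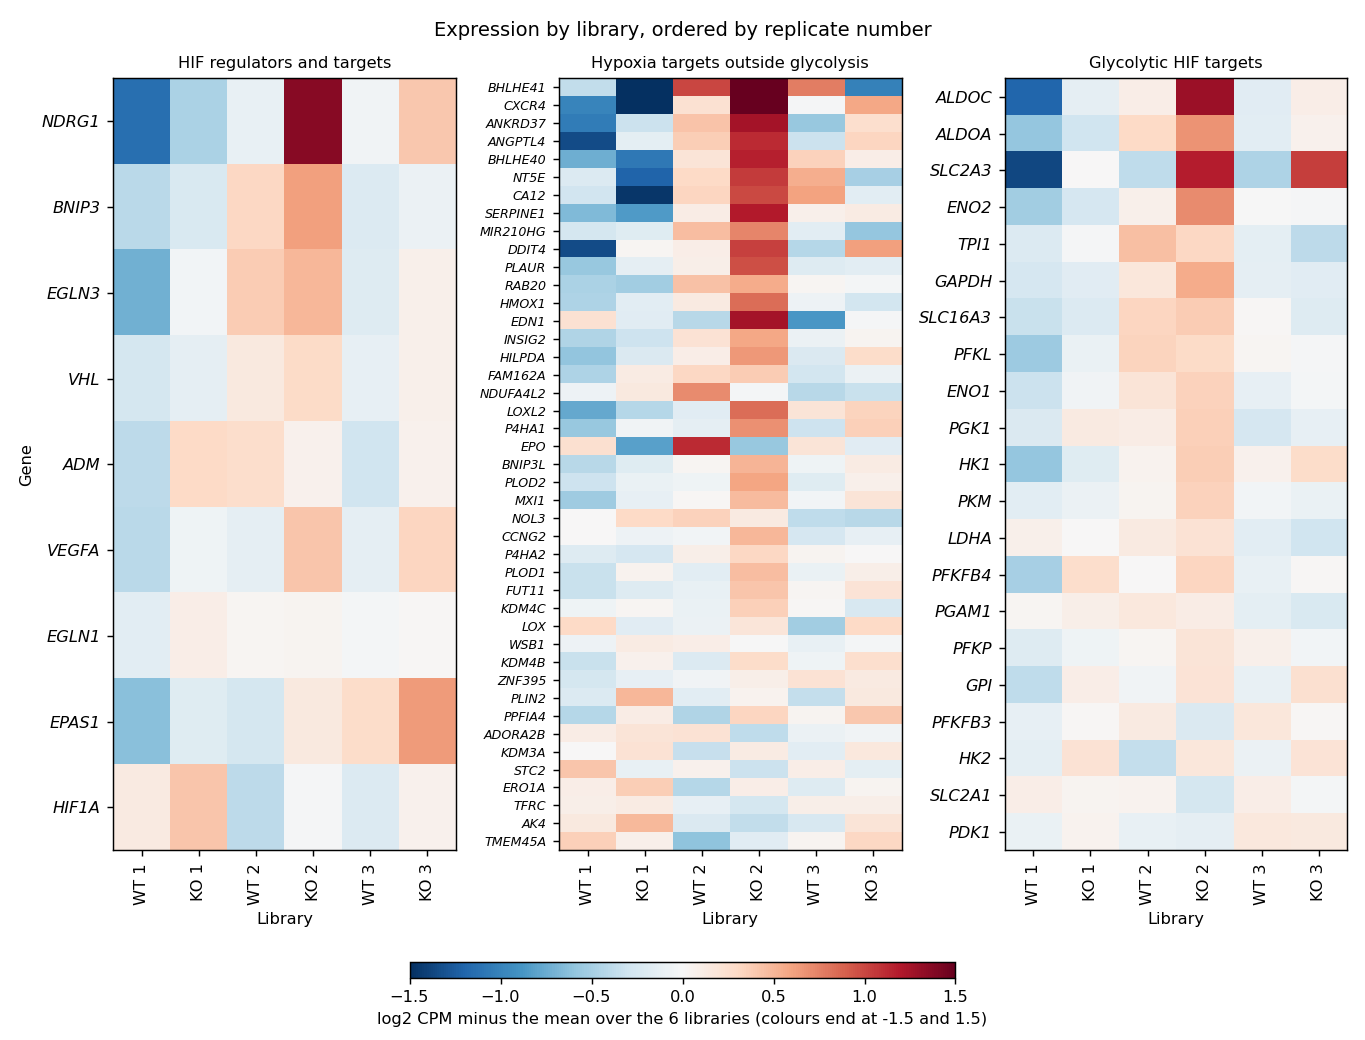
Log2 CPM of each gene minus its mean over the 6 libraries (colour, from blue at -1.5 to red at 1.5) for the HIF regulators and targets, other hypoxia targets and glycolytic targets. Columns are libraries ordered by replicate number, and rows are ordered by the mean of the 2 libraries numbered 2. NDRG1 reads 1.37 in LSD1 KO library 2 and -1.13 in WT library 1, and HIF1A at the bottom of its panel reads -0.40 in WT library 2.

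The pattern of NDRG1, the gene with the widest range (2.50 on the log2 scale), was compared with that of every gene with a mean of at least 1 CPM. Likeness was the root mean square difference between centred log2 CPM over the 6 libraries, which share depth and replicate numbers. GEM was the nearest with 0.15, from 12.4, 22.1 and 20.8 CPM in WT to 13.7, 60.2 and 30.4 CPM in LSD1 KO libraries. SERPINB1 followed with 0.15 and NTN4 with 0.16. Among the 10 genes themselves NDRG1 had no close neighbour, since EGLN3 as the nearest differed by 0.50, whereas VHL and EGLN1 differed by 0.16 and EGLN3 and BNIP3 by 0.17.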

How the data were processed

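Poly(A) RNA of 3 WT and 3 LSD1 KO HCT116 libraries was sequenced. After quality checks (FastQC) and trimming (Trimmomatic 0.39), the authors ran Salmon 1.4.0 with GRCh38 and deposited expected counts per gene as whole numbers without scaling for depth. Symbols were matched by Ensembl identifier for 58395 of 60240 genes, with PECAM1 unmatched.

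Genes passing filterByExpr were compared with edgeR 4.0.16 in R 4.3.3 (TMM, quasi-likelihood test, Benjamini-Hochberg over all genes tested, q under 0.1). The alternatives were RLE and upper-quartile factors, other filters, DESeq2 1.42.0, the replicate block, a correction for the length and GC content of canonical transcripts (GENCODE v44lift37, known for 98.8% of genes, splines with 5 df), and leaving out each library. The correction and the omission of both libraries numbered 2 were added after seeing the data. Log2 CPM used a prior count of 2.

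The labels number the libraries alike in both groups and do not say what a number marks. Deviations from group means correlated across genes at 0.404 to 0.553 for same-numbered libraries and at -0.516 to 0.0454 for others, so same numbers were taken as pairs. The biological coefficient of variation was 0.279 without the block and 0.133 with it.

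The genes and lists were chosen with earlier results of these data known. The text names KDM1A, the 10 genes, each list gene with q under 0.1 in either fit, the 2 with the largest fold change per list, and the 3 genes most like NDRG1. Further hypoxia targets were named after their values were seen, where a count of non-overlapping or lower genes needed them. The fitting steps were tested on simulated data. Figures used matplotlib 3.10.9.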

Additional observations from a re-analysis of the deposited data

How the results depend on the processing

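The count of genes called between LSD1 KO and WT cells was 1 and depended on the fit. It was 282 with the replicate block (1.60% of all genes tested), 114 with all genes with counts kept (0.337%) and 95 with DESeq2 (0.376%). With the length and GC correction it was 4 (0.0226%), and 411 with that correction and the replicate block (2.33%). With both libraries numbered 2 left out it was 22 (0.122%), and 1055 with the replicate block as well (5.85%). Among the HIF regulators and targets, 2 were called with the replicate block, against 1.60% of all genes. With the correction and the block 3 were called (EPAS1, NDRG1 and VEGFA), against 2.33% of all genes. With the block and without both libraries numbered 2 there were 4 (ADM, EPAS1, NDRG1 and VEGFA), against 5.85% of all genes. Of other hypoxia targets 1, DDIT4, was called with all genes kept, 4 with the replicate block, 8 with the correction and the block (7 higher) and 14 with the block and without both libraries numbered 2 (10 higher). Of glycolytic targets these counts were 1, 2, 3 and 4, and DESeq2 called 1. With the block and without both libraries numbered 2, 1 gene of the subunits and cofactors and 1 of oxygen sensing were called, against 5.85% of all genes. The causes were not tested.

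Leaving out 1 library at a time gave 1 to 26 genes called, the 26 without LSD1 KO library 2, and 4525 to 8668 genes called for replicate number. The median log2 fold change then ranged from 0.14 to 0.44 for the HIF regulators and targets, 0.063 to 0.33 for other hypoxia targets, -0.026 to 0.31 for glycolytic targets, -0.13 to 0.18 for subunits and cofactors and -0.081 to 0.065 for oxygen sensing. BNIP3 ranged from -0.11 to 0.44. For the other 8 genes of the group the log2 fold change stayed positive in the alternatives tried, and EGLN1 and VEGFA ranged from 0.055 to 0.14 and from 0.35 to 0.59 with 1 library left out. Without both libraries numbered 2, the medians were 0.37 and, with the block, 0.39 for the HIF regulators and targets and -0.13 and -0.15 for subunits and cofactors, and without the block 0.14 for other hypoxia targets and 0.091 for glycolytic targets. The median of subunits and cofactors stood at -0.018 with at least 10 counts in every library. RLE and upper-quartile factors changed no call among these genes. CA9 was too low for the filter of the main edgeR fit at this depth, and DESeq2, which kept it, did not call it.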
